A study of Mus musculus with 57 samples.

Results

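The 37 genes described here encode proteins of the basement membrane, cell surface receptors that bind it and enzymes that process its collagens. They were taken by name from 5 roles: 10 laminin chains, 6 collagen IV chains, 6 other matrix proteins, 10 receptors and 5 collagen-processing enzymes. For each gene, every peak whose summit lay within 50 kb of its transcription start site (TSS) was counted, and the same count was made for all 21938 protein-coding genes of the annotation. The rule uses no measured value, but the genes were chosen with earlier results of these data known. The peaks came from CUT&RUN, in which an antibody brings a nuclease to the sites of a transcription factor (TF) so that the DNA released there can be sequenced.

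The cells were KH2 mouse embryonic stem (ES) cells with the transgene TRE:GATA6-DSREd2, from which doxycycline (Dox) switches on GATA6, a TF of the primitive endoderm (PrE). Cells at 0 h grew in 2i medium with LIF and without Dox. Cells at 2, 4 and 8 h grew in serum medium with LIF and Dox, and cells at 24 and 48 h had Dox for 12 h followed by serum medium without it. The change of medium and the induction of GATA6 therefore cannot be told apart between 0 h and the later times. Peak lists of 30 samples were used, 2 lists in each of 15 groups: GATA6 at 0, 2, 4, 8 and 48 h, the epiblast (Epi) TFs NANOG and SOX2 at 0, 2, 4 and 8 h, and the PrE TFs GATA4 and SOX17 at 24 h.

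A basement membrane is a thin sheet of matrix on which epithelia rest. Laminins, trimers of an alpha, a beta and a gamma chain, form one of its networks and collagen IV the other, while nidogens and heparan sulfate proteoglycans tie the networks together. Integrins and dystroglycan anchor cells to it. The PrE lays down a basement membrane towards the Epi, and its parietal derivative is known for making very large amounts of laminin, collagen IV and SPARC.

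Each list had its own number of peaks, and this sets how the counts read. For GATA6, the peak names in the 6 lists of 4, 8 and 48 h belong to another of these times than the record does, and the times used here are those of the names. By the record, the lists called 48 h here would be those of 4 h, those called 4 h those of 8 h and those called 8 h those of 48 h. The GATA6 lists held 86 and 882 peaks at 0 h, 79358 and 62683 at 2 h, 47894 and 54281 at 4 h, 28676 and 30234 at 8 h, but 5933 and 9767 at 48 h. The background coverage of a library, in fragments per base, serves as its depth. Uninduced GATA6 libraries had 0.287 and 0.315. It was from 0.928 to 1.34 in the later GATA6 libraries, from 0.865 to 1.31 for NANOG, from 0.290 to 0.692 for SOX2, and 1.23 and 1.55 for SOX17. A peak number over many cells does not tell fewer cells with a bound site from weaker binding in each cell. A gene is called bound in a group when each of its 2 lists had at least 1 peak within 50 kb of the TSS, which says nothing of which gene a site acts on.

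At 48 h, GATA6 bound 15 of the 37 genes, and the strongest region of 8 of them is shown here, taken by the highest mean fold, so that the letters behind the peak counts can be seen. Each sequence is a summit with 100 bases on each side, from the forward strand of mm10 as given by RefSeq, with matches to a GATA motif (the hexamer AGATAA or AGATAG, and likewise TGATAA or TGATAG, on either strand) in capitals. The fold is the enrichment over the local background at the summit, as mean ± SD over the 2 GATA6 48 h lists.
Lamc1, chr1:153376817-153377017: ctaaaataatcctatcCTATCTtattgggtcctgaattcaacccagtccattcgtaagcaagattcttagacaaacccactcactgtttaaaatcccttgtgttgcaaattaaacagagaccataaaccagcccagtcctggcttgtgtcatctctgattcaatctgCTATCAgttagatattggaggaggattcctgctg
Lamb1, chr12:31229380-31229580: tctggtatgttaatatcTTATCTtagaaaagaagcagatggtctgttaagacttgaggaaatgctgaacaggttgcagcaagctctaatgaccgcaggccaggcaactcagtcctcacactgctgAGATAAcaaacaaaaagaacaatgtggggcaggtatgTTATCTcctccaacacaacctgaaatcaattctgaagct
Lama1, chr17:67683453-67683653: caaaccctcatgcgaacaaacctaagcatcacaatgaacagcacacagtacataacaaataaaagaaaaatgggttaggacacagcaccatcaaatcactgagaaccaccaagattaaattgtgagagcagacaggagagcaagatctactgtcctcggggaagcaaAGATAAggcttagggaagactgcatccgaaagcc
Itga3, chr11:95078307-95078507: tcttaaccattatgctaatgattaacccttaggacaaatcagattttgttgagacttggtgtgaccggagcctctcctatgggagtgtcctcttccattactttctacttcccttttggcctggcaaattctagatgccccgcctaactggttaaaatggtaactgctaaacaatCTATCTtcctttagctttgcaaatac
Serpinh1, chr7:99353991-99354191: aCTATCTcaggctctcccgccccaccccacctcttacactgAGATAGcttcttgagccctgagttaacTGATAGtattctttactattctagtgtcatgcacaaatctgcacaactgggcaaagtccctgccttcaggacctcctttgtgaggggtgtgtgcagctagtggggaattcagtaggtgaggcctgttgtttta
Col4a1 and Col4a2, chr8:11317512-11317712: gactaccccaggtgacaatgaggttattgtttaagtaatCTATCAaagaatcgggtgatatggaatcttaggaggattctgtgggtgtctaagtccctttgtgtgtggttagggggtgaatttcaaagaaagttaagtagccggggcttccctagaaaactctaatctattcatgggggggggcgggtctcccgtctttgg
Sparc, chr11:55428877-55429077: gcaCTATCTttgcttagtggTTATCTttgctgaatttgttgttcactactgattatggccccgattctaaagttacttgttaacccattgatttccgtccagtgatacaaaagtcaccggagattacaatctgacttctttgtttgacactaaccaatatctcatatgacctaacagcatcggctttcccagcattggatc

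The Lamc1 window lay between genes, 44131 bp upstream of the TSS, with a fold of 20.1 ± 0.372 (SD, n = 2) and 2 motif matches. The Lamb1 window lay between genes, 35754 bp upstream of its TSS, with a fold of 18.9 ± 0.388 (SD, n = 2) and 3 matches, and the TSS of the protein-coding gene Gm6993 was nearer, at 11290 bp. The Lama1 window lay between genes, 13706 bp upstream, with a fold of 17.96 ± 2.05 (SD, n = 2) and 1 match. These 3 genes encode the gamma, beta and alpha chain of the main laminin of early embryonic basement membranes. The Itga3 window lay between genes, 1606 bp upstream of the TSS, with a fold of 15.3 ± 0.916 (SD, n = 2) and 1 match. The Serpinh1 window lay between genes, 852 bp upstream, with a fold of 14.8 ± 1.84 (SD, n = 2) and 3 matches. Those 2 were the windows nearest to a TSS. The Col4a1 and Col4a2 window lay in an intron of Col4a2, 4786 bp upstream of the TSS of Col4a1, with a fold of 12.0 ± 4.49 (SD, n = 2) and 1 match. Both genes start close to each other in opposite directions and had the same peak number in every list. They are not separate observations, though both are included in the numbers of genes given here. The Sparc window lay between genes, 5794 bp upstream, with a fold of 9.08 ± 3.93 (SD, n = 2) and 2 matches. The regions around all 7 summits held SOX17 peaks of both lists and 6 held GATA4 peaks of both lists, the exception being that of Col4a1 and Col4a2. Of the 7, the Lama1 region alone had no GATA6 peak of both lists at 2 h.

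GATA6 peaks appeared around nearly all of the genes at 2 h and were held around a minority of them at 48 h, as the peak lists became shorter. Before induction GATA6 bound 0 of 37 genes (0.00456% of all genes). It bound 33 at 2 h (78.3%), 31 at 4 h (71.2%) and 29 at 8 h (57.9%), but 15 at 48 h (20.6%). The 4 genes not bound at 2 h were Col4a3, Col4a4, Col4a5 and Col4a6. By role, 10 of 10 laminins were bound at 2 h and 3 at 48 h, and 10 of 10 receptors at 2 h and 3 at 48 h. Of 6 collagen IV genes 2 were bound at both times, of 6 other matrix proteins 6 and 3, and of 5 collagen-processing enzymes 5 and 4. GATA4 at 24 h bound 20 of the 37 genes (19.9% of all genes) and SOX17 at 24 h bound 28 (61.4%). At 0 h a single GATA6 peak lay near Itga1, Itgav and Plod2, each in replicate 2 alone. If the lists are dated by the record, the genes bound at 4, 8 and 48 h were 15, 31 and 29 (20.6%, 71.2% and 57.9% of all genes).

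**Figure D1:**
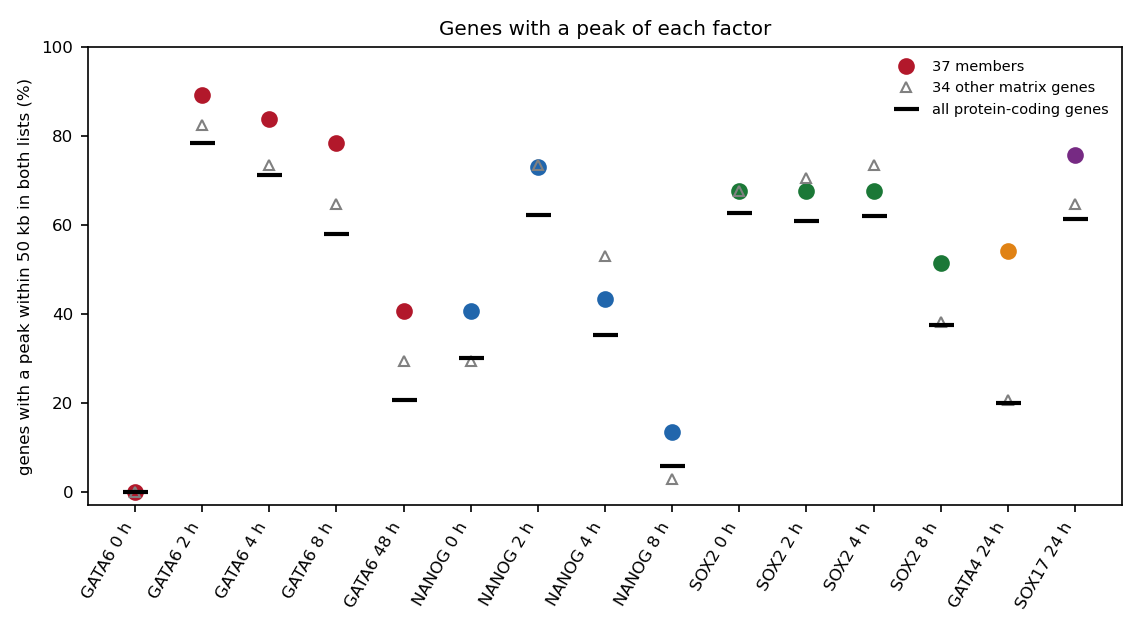
Share of genes, in percent, with at least 1 peak within 50 kb of the TSS in both lists of a group (x axis, TF and hours after Dox), for the 37 genes (members, filled circles), 34 other matrix genes (triangles) and all 21938 protein-coding genes (bars). For GATA6 the circles stand for 33 genes at 2 h and 15 at 48 h, where the bar is at 20.6%, and for GATA4 for 20 genes beside a bar at 19.9%.

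The number of GATA6 peaks near the genes followed the length of the lists. Counting each peak once, the GATA6 peaks within 50 kb of the genes numbered 305.5 ± 44.5 at 2 h. At 4, 8 and 48 h they numbered 233.5 ± 19.1, 151 ± 4.24 and 65.5 ± 14.8 (SD, n = 2). The 48 h number was 21.4% of that at 2 h. The whole lists shortened more, so the peaks near the genes were 0.431% of all GATA6 peaks at 2 h and 0.853% at 48 h. Per gene, the 37 genes had 1.86 times the mean peak number of all genes at 2 h and 4.00 times at 48 h. The ratio was 3.09 for GATA4 and 2.49 for SOX17.

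When every GATA6 list after 0 h was reduced to its 5933 strongest peaks by q-value, the direction turned. Then 36 ± 2.83 peaks lay near the genes at 2 h, and 43.5 ± 4.95, 45 ± 1.41 and 56 ± 1.41 at 4, 8 and 48 h (SD, n = 2), and the 2 lists at 48 h did not overlap with those at 2 h. The 48 h number was now 156% of that at 2 h. The genes bound at 2, 4, 8 and 48 h were 15, 16, 16 and 15 of 37, against 20.7%, 20.2%, 21.0% and 17.7% of all genes. The lower numbers at 48 h in the whole lists thus went with lists of fewer peaks, while among the strongest peaks a larger share lay near these genes at 48 h than at 2 h. Whether the list lengths came from binding or from the libraries was not tested. The GATA6 sample titles carry the letters DL at 2, 4 and 8 h, but JT and the word merged at 48 h. What the letters stand for is not said, and time cannot be told apart from this difference between 2 h and 48 h.

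**Figure D2:**
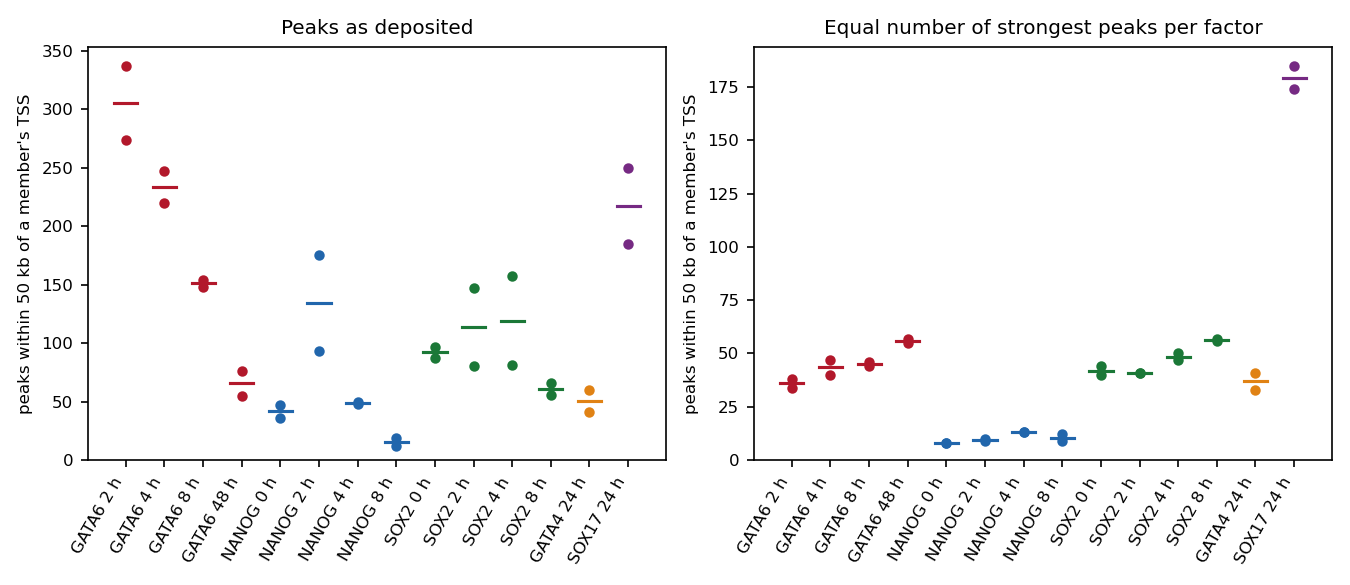
Peaks within 50 kb of the TSS of the 37 genes (members; y axis, number of peaks) in each list as deposited (left) and in the same number of strongest peaks for every list of a TF (right), with points for the 2 lists and a line for their mean. GATA6 went from 305.5 at 2 h to 65.5 at 48 h on the left and from 36 to 56 on the right. The 2 axes differ in range.

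For single genes, each TF's peak numbers were compared between its time points by an exact permutation test over the lists, adjusted by the Benjamini-Hochberg method over all genes with a mean of at least 0.5 peaks per list. Of the 37 genes 32 had enough GATA6 peaks, and 19 of these differed between time points, which 52.1% of all 16655 genes tested also did. The 19 were 5 laminins (Lama1, Lama4, Lama5, Lamb2 and Lamc1), 6 other matrix proteins (Nid1, Nid2, Hspg2, Agrn, Sparc and Fn1), 7 receptors (Dag1, Itga3, Itga5, Itga6, Itgav, Itgb4 and Itgb5) and the enzyme gene Plod2. The test includes the nearly empty 0 h lists and compares all time points at once. No p-value given for a gene is therefore for 2 h against 48 h alone. Without the GATA6 0 h lists 0 of 32 genes passed and 15 had an unadjusted p under 0.05 (41.4% of all genes tested), by the same exact permutation test, whose smallest p is then 0.00952, and without one of the 0 h lists, replicate 1 or replicate 2, 11 passed in either case (21.4% of all genes tested). At 48 h both GATA6 lists were lower than both at 2 h for 28 of 37 genes (71.8% of all genes) and higher for 1, P4ha2 (0.579%). In the equal numbers of strongest peaks they were lower for 4 (Lama5, Lamc1, Itga6 and Plod1, beside 10.7% of all genes) and higher for 11 (9.18%). Those 11 were Lama1, Lamb1, Col4a1, Col4a2, Nid2, Agrn, Sparc, P4ha1, P4ha2, Serpinh1 and Plod2.

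Among the laminins, Lama1, Lamb1 and Lamc1 were bound by GATA6 at 48 h and the other 7 were not. Lamc1 had more GATA6 peaks than any other of the 37 genes at 2 h, with 36 and 32 in the 2 lists, then 31 and 28 at 4 h, 17 and 19 at 8 h and 5 and 5 at 48 h. The groups did not overlap and the difference between time points passed the test (exact permutation test, adjusted p = 0.0192). Lamb1 had 15 and 10 peaks at 2 h, 11 and 16 at 4 h, 12 and 12 at 8 h and 7 and 9 at 48 h, the most of the 37 genes at 48 h. Its lists at 2, 4 and 8 h overlapped, and the difference did not pass (exact permutation test, adjusted p = 0.0605). Lama1 had 15 and 12 peaks at 2 h, 6 and 11 at 4 h, 3 and 5 at 8 h and 5 and 7 at 48 h (exact permutation test, adjusted p = 0.0263). Its numbers at 48 h overlapped with those at 4 and 8 h.

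Of the strongest 5933 peaks, Lamb1 had 2 and 2 at 2 h and 7 and 7 at 48 h, Lama1 had 2 and 2 and then 5 and 4, and Lamc1 had 6 and 7 and then 5 and 5. The alpha and beta chain genes thus had more of the strongest peaks at 48 h than at 2 h and the gamma chain gene fewer. SOX17 at 24 h had 21 and 29 peaks near Lamb1, 13 and 20 near Lama1 and 10 and 20 near Lamc1, and GATA4 had 6 and 3, 4 and 3, and 5 and 4. Lama5, the alpha chain of many adult basement membranes, had 15 and 14 GATA6 peaks at 2 h, 10 and 9 at 4 h, 7 and 7 at 8 h and 0 and 0 at 48 h (exact permutation test, adjusted p = 0.0192). GATA4 had 4 and 3 peaks near it at 24 h. Lama4, found in vessel walls, had 6 and 5 GATA6 peaks at 2 h and 0 and 0 at 48 h (exact permutation test over all time points, adjusted p = 0.0192). Lama2, Lama3, Lamb3 and Lamc3 had at most 4 peaks in any GATA6 list and Lamb2 at most 7.

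**Figure D3:**
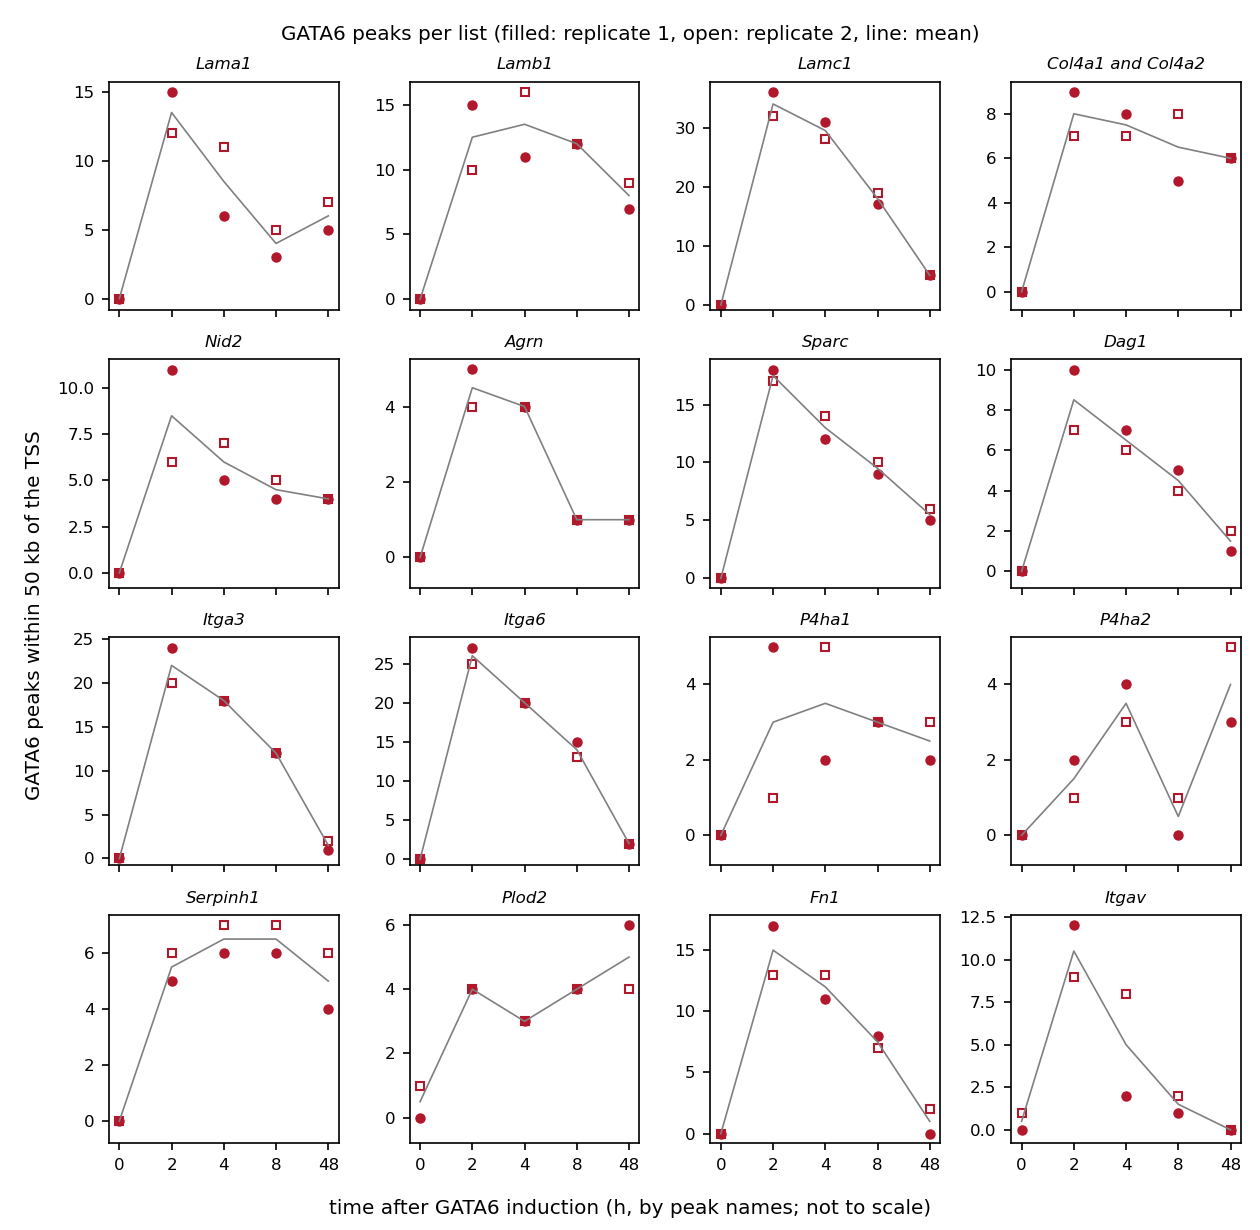
GATA6 peaks within 50 kb of the TSS (y axis, number) against hours after Dox by the peak names (x axis, not to scale) for the 15 genes bound at 48 h, Col4a1 and Col4a2 in 1 panel, and for Fn1 and Itgav. Filled circles are replicate 1, open squares replicate 2 and the line their mean. Lamc1 and Itga6 went from over 25 peaks in the mean at 2 h to 5 and 2, while Serpinh1, Plod2 and Col4a1 and Col4a2 were at 5, 5 and 6 at 48 h.

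Of the collagen IV genes, the pair Col4a1 and Col4a2, whose chains form the main collagen IV network, carried every GATA6 peak counted. There were 9 and 7 peaks at 2 h, 8 and 7 at 4 h, 5 and 8 at 8 h and 6 and 6 at 48 h. The lists overlapped between 2, 4 and 8 h, and the difference between time points did not pass (exact permutation test, adjusted p = 0.0851). Of the strongest 5933 peaks the pair had 1 and 1 at 2 h and 6 and 5 at 48 h. SOX17 had 17 and 18 peaks and GATA4 4 and 4 near the pair at 24 h. Col4a3 to Col4a6, which serve more specialised basement membranes such as that of the kidney glomerulus, had 0 GATA6 peaks within 50 kb in all 10 lists and at most 1 peak in any list of the other TFs. The 2 pairs Col4a3 with Col4a4 and Col4a5 with Col4a6 each share a start region, so they are not separate observations.

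Among the other matrix proteins, Nid2, Agrn and Sparc were bound by GATA6 at 48 h. Sparc, a collagen-binding protein abundant in parietal endoderm, had 18 and 17 GATA6 peaks at 2 h, 12 and 14 at 4 h, 9 and 10 at 8 h and 5 and 6 at 48 h. The 4 times did not overlap (exact permutation test, adjusted p = 0.0192). Nid2, a nidogen that links laminin to collagen IV, had 11 and 6 peaks at 2 h, 5 and 7 at 4 h, 4 and 5 at 8 h and 4 and 4 at 48 h (exact permutation test, adjusted p = 0.0435). Agrn, the heparan sulfate proteoglycan agrin, had 5 and 4 peaks at 2 h, 4 and 4 at 4 h, and 1 in each list at 8 and 48 h (exact permutation test, adjusted p = 0.0265). Among the strongest 5933 peaks Sparc had 4 and 4 at 2 h and 5 and 6 at 48 h, and Nid2 had 2 and 1 and then 4 and 4.

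The other 3 of this role were not bound in both lists at 48 h. Fn1, the fibronectin gene, had 17 and 13 GATA6 peaks at 2 h, 11 and 13 at 4 h, 8 and 7 at 8 h and 0 and 2 at 48 h (exact permutation test, adjusted p = 0.0263). Hspg2, which encodes the proteoglycan perlecan, had 21 and 15 at 2 h, 11 and 16 at 4 h, 7 and 7 at 8 h and 0 and 3 at 48 h (exact permutation test, adjusted p = 0.0263). Nid1, the second nidogen, had 14 and 10 at 2 h, 6 and 7 at 4 h, 5 and 3 at 8 h and 1 and 0 at 48 h (exact permutation test, adjusted p = 0.0192). The GATA6 numbers of the 2 nidogens overlapped at 2 h, and at 48 h Nid2 alone was bound. They stood further apart for SOX17, with 14 and 14 peaks near Nid2 and 1 and 2 near Nid1. Hspg2 also had 15 and 11 SOX17 peaks.

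Of the receptors, 3 of 10 were bound by GATA6 at 48 h, namely Dag1 and the integrin alpha subunit genes Itga3 and Itga6. Itga6 had 27 and 25 peaks at 2 h, 20 and 20 at 4 h, 15 and 13 at 8 h and 2 and 2 at 48 h (exact permutation test, adjusted p = 0.0192). Itga3 had 24 and 20 at 2 h, 18 and 18 at 4 h, 12 and 12 at 8 h and 1 and 2 at 48 h (exact permutation test, adjusted p = 0.0192). Both had separate values at each time. Dag1, dystroglycan, had 10 and 7 at 2 h, 7 and 6 at 4 h, 5 and 4 at 8 h and 1 and 2 at 48 h (exact permutation test, adjusted p = 0.0192). Of the strongest 5933 peaks Itga6 had 7 and 10 at 2 h and 2 and 2 at 48 h, so for this gene the number was lower at 48 h at equal numbers of peaks too.

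Itgav, a subunit of fibronectin and vitronectin receptors, had 12 and 9 GATA6 peaks at 2 h, 2 and 8 at 4 h, 1 and 2 at 8 h and 0 and 0 at 48 h (exact permutation test, adjusted p = 0.0328). Its replicates at 4 h differed by 6 peaks. Itgb5, a partner of Itgav, had 11 and 15 at 2 h and 0 and 3 at 48 h (exact permutation test over all time points, adjusted p = 0.0192). Itgb4, which pairs with Itga6 in hemidesmosomes, had 16 and 9 at 2 h and 0 and 3 at 48 h (exact permutation test over all time points, adjusted p = 0.0263). In both, replicate 2 alone, the longer of the 48 h lists, carried the 48 h peaks. Itga5, the alpha subunit of the main fibronectin receptor, had 6 and 9 at 2 h and 0 and 1 at 48 h (exact permutation test over all time points, adjusted p = 0.0265). The collagen receptor genes Itga1 and Itga2 had at most 6 and 1 peaks in any GATA6 list. Itgb1, the common partner of most matrix-binding alpha subunits, had at most 2 there.

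Of the 5 collagen-processing enzymes 4 were bound by GATA6 at 48 h, all but Plod1. Serpinh1, a chaperone of procollagen, had 5 and 6 peaks at 2 h, 6 and 7 at 4 h, 6 and 7 at 8 h and 4 and 6 at 48 h, and these lists overlapped (exact permutation test, adjusted p = 0.0754). Plod2, a lysyl hydroxylase, had 4 and 4 at 2 h, 3 and 3 at 4 h, 4 and 4 at 8 h and 6 and 4 at 48 h. It passed the test (exact permutation test, adjusted p = 0.0347), with 0 and 1 peaks at 0 h and 48 h values at or above those of 2 h. P4ha1 and P4ha2 encode catalytic subunits of collagen prolyl hydroxylase. P4ha1 had 5 and 1 peaks at 2 h, 2 and 5 at 4 h, 3 and 3 at 8 h and 2 and 3 at 48 h (exact permutation test, adjusted p = 0.371). P4ha2 had 2 and 1 at 2 h, 4 and 3 at 4 h, 0 and 1 at 8 h and 3 and 5 at 48 h (exact permutation test, adjusted p = 0.0665). It was the only one of the 37 genes for which both lists at 48 h exceeded both at 2 h. Plod1, a second lysyl hydroxylase, had 7 and 6 at 2 h, 4 and 6 at 4 h, 5 and 6 at 8 h and 1 and 0 at 48 h (exact permutation test, adjusted p = 0.0510). Of the strongest 5933 peaks, Serpinh1 had 0 and 1 at 2 h and 4 and 5 at 48 h, Plod2 had 0 and 0 and then 6 and 2, P4ha1 had 0 and 0 and then 2 and 3, and P4ha2 had 0 and 0 and then 3 and 1.

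The sites of GATA6 at 48 h near the genes were compared with those of the PrE TFs at 24 h. A region was counted where both lists of a group had a peak, and another group was held where both of its lists overlapped the region by at least 1 bp. At 48 h 47 GATA6 regions lay near the 15 genes. SOX17 peaks of both lists lay at 85.1% of them, against 74.7% of the 2594 GATA6 48 h regions near any gene, and GATA4 peaks at 48.9%, against 41.6%. The GATA4 share was below that near any gene among peaks with a −log10 q of at least 5 (29.0% against 35.3%) and at equal numbers of strongest peaks (34.1% against 37.4%). By the record the regions of 48 h had shares of 51.7% for SOX17 (37.6% near any gene) and 22.4% for GATA4 (12.8%). Both TFs were present at 21 regions, SOX17 alone at 19, GATA4 alone at 2 and neither at 5. Counted by gene, 14 of the 37 (11.3% of all genes) were bound by GATA6 at 48 h, GATA4 and SOX17, at shared or separate sites. These were the 15 genes bound at 48 h without Agrn. P4ha2 and Plod2 among them had 0 GATA6 48 h regions with both GATA4 and SOX17. Of the 47 summits, 23 lay in introns, 23 between genes and 1 in an exon, of P4ha1. The median distance to the TSS was 18.3 kb, 33 summits lay upstream, 16 within 10 kb and 2 within 2 kb. For regions shared by Col4a1 and Col4a2, distance and direction were taken from the TSS of Col4a1.

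For 37 of the 47 summits the nearest protein-coding TSS was that of one of the 37 genes. Of the 7 Lamb1 regions 3 were nearer to the TSS of Gm6993. The only region of Dag1 lay 68 bp from the TSS of Nicn1. Dag1 thus counts as bound at 48 h through a site beside the TSS of another gene. Among the Sparc regions, 1 lay 154 bp from the TSS of G3bp1, and 1 Lama1 region was nearer to the TSS of Lrrc30. Regions counted here for P4ha2 lay in part in introns of Pdlim4, those of Serpinh1 in part in Gdpd5, and both of Itga6 lay inside Platr26, a gene for a long non-coding RNA, in its intron. Lamb1 had 7 regions, Col4a1 and Col4a2 shared 6, Lamc1 and Sparc had 5 each and Lama1 and Serpinh1 had 4 each. These 7 genes therefore held 31 of the 47 regions.

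**Figure D4:**
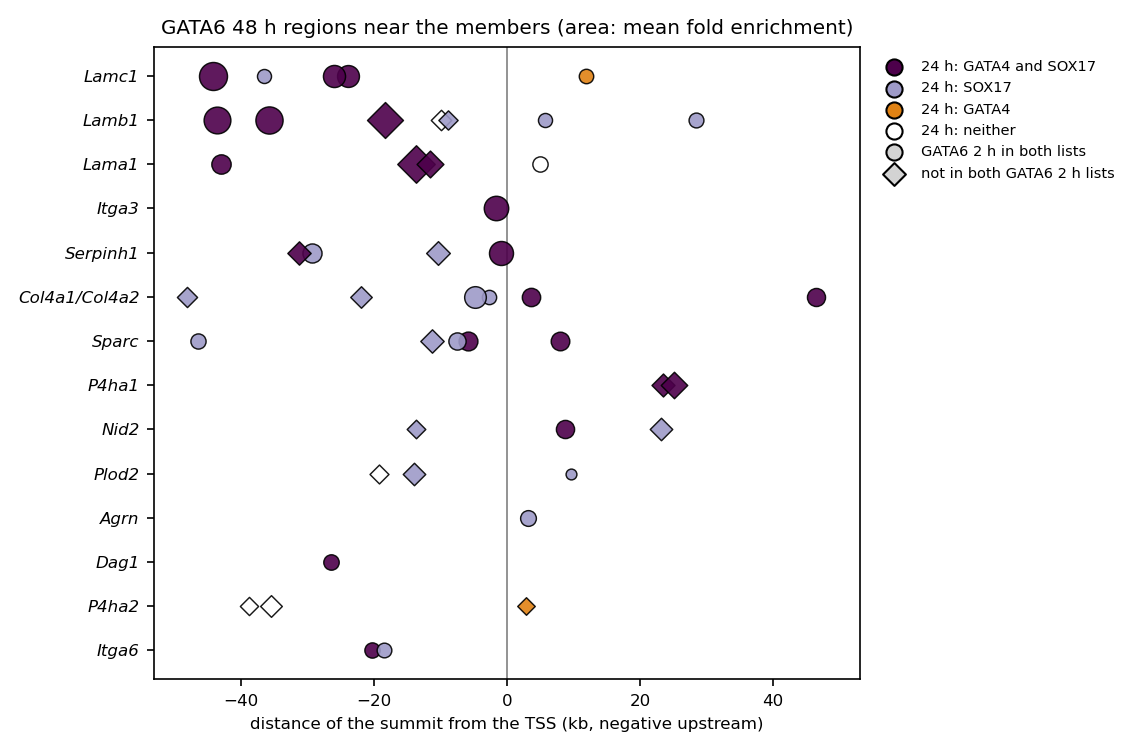
Distance of each GATA6 48 h summit from the TSS (x axis, kb, negative upstream) for the 15 genes bound at 48 h (rows; the members), with the mean fold enrichment as the area of the symbol. Colour gives the PrE TFs at the region at 24 h and shape whether both GATA6 2 h lists had a peak there. SOX17 was at 40 of the 47 regions and 33 summits lay upstream. Distances for the pair Col4a1 and Col4a2 are from the TSS of Col4a1.

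Most 48 h regions near the genes were already GATA6 sites at earlier times. GATA6 peaks of both lists were present at 59.6% of the 47 regions at 2 h, against 64.2% of 48 h regions near any gene, and at 63.8% at 8 h, against 68.7%. NANOG at 2 h lay at 31.9%, against 32.3%. A GATA6 peak in no list at 2, 4 or 8 h was found for 9 of 47, or 19.1%, against 17.7%. Of these 9, 3 lay near Lamb1, and Lama1, Nid2, Sparc, P4ha2, Plod2 and the pair Col4a1 and Col4a2 had 1 each. Viewed from 2 h, 208 GATA6 regions lay near the genes and 28 of them, 13.5%, were held at 48 h, against 5.91% of the 28284 regions near any gene. The 28 were spread over 13 genes, with 5 near Lamc1 and 4 each near Lamb1, Sparc and the pair Col4a1 and Col4a2. At equal numbers of strongest peaks the 2 h lists had 34 and 38 peaks near the genes. The share was then 48.3%, against 22.4% near any gene. It was 8.90% (3.66%) when a peak in replicate 1 alone sufficed at 2 h, and by the record the lists of 48 h held 47.1% (38.4%).

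GATA motifs were more frequent in the sites held to 48 h. At least 1 match to the 4 hexamers named above stood within 100 bases of the summit in 113 of 208 regions at 2 h (54.3%, against 51.5% near any gene). The share was 65.7% at 4 h (59.0% near any gene), 75.9% at 8 h (72.9%) and 85.1%, or 40 of 47, at 48 h (78.2%). The lists shortened over the same times, and whether the rise came from keeping stronger peaks was not tested. For 2 or more matches, the 48 h share was 42.6%, below the 48.0% near any gene. The 8 h share was also below (37.1% against 39.2%). Regions of 2 h (19.7% against 18.9%) and of 4 h (26.6% against 25.5%) were above. Of the 28 regions of 2 h that were held at 48 h, 82.1% had a match, against 50.0% of the 180 that were not, and near any gene these shares were 69.9% and 50.4%. GATA4 regions near the genes had a match in 85.3% (75.4% near any gene) and SOX17 regions in 50.0% (39.5%). In windows of the same length at the TSS of all 21938 genes the share was 16.2%. Windows away from a TSS were not compared, so this share is no background for sites far from a TSS. A match is a string of letters and no measurement of binding, and the regions of one gene are not independent.

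The GATA6 regions of 2 h were also compared with the sites of the Epi TFs at 0 and 2 h. Near the 37 genes 11.1% of the 208 regions held NANOG at 0 h, against 11.6% near any gene, and 27.4% held NANOG at 2 h, against 34.7%. SOX2 was at 23.6% at 0 h, against 26.3%, and at 26.9% at 2 h, against 31.4%. SOX17 at 24 h lay at 33.7%, against 28.3%, and GATA4 at 11.5%, against 6.04%. The NANOG and SOX2 shares at 0 h were close to those near any gene. Some shares moved with single lists. Without replicate 2 of NANOG at 2 h the NANOG share was 53.8% (59.0% near any gene), without replicate 1 of SOX2 at 2 h the SOX2 share was 45.7% (54.5%), and without replicate 2 of GATA4 the GATA4 share was 18.8% (12.2%). Without replicate 2 of GATA6 at 2 h these shares were 18.1%, 17.2% and 7.42%. Lamc1 had 28 regions at 2 h, of which 10 held NANOG at 2 h and 6 SOX2 at 0 h. Of the 18 regions of Itga3, 1 held NANOG at 2 h and 0 held SOX2 at 0 h. At Fn1, 6 of 8 held SOX2 at 0 h and 0 of 8 held GATA6 at 48 h, and at Itgav 4 of 8 held SOX2 and 4 of 8 NANOG at 0 h.

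NANOG peaks near the genes were most numerous at 2 h. In uninduced cells NANOG bound 15 of 37 genes (30.0% of all genes), then 27 at 2 h (62.3%) and 16 at 4 h (35.2%), but 5 at 8 h (5.83%). The 5 were Lamb1, Lamc1, Sparc, Itga3 and Itga6, and 8 genes without replicate 1 or 16 without replicate 2 had a peak in the remaining 8 h list (12.5% and 26.1% of all genes). The peaks near the genes over the 4 times numbered 41.5 ± 7.78, 134 ± 58.0, 49 ± 1.41 and 15.5 ± 4.95 (SD, n = 2), and the 2 h lists held 175 and 93. Both lists were higher at 2 h than at 0 h for 20 genes (41.0% of all genes), and both were lower at 8 h than at 2 h for 25 (53.4%). Itga6 had 3 and 3 NANOG peaks at 0 h, 17 and 11 at 2 h, 6 and 6 at 4 h and 1 and 2 at 8 h. Lamc1 had 3 and 5, 16 and 12, 10 and 8, and 3 and 2. Itgav had 5 and 4, 11 and 6, 1 and 3, and 1 and 0. In these 3 genes the 2 h lists were the highest.

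Of the 26 genes tested for NANOG 0 passed the exact permutation test with Benjamini-Hochberg adjustment, and 0% of 14475 genes did, since a call would have needed 2758 genes at the smallest p of 0.00952. At an unadjusted p of 0.05 the number was 6 of 26 genes, against 14.8% of all genes tested. In the 2255 strongest peaks of each NANOG list, 8 ± 0 peaks lay near the genes at 0 h, and 9.5 ± 0.707, 13 ± 0 and 10.5 ± 2.12 at 2, 4 and 8 h (SD, n = 2). At equal numbers the 2 h lists were thus not the highest.

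SOX2 was near the same number of genes up to 4 h and near fewer at 8 h. In uninduced cells SOX2 bound 25 of 37 genes (62.6% of all genes), as it did at 2 h (25, beside 60.9%) and 4 h (25, beside 62.0%), and at 8 h it bound 19 (37.4%). The peaks near the genes numbered 92 ± 7.07, 113.5 ± 47.4, 119 ± 53.7 and 61 ± 7.07 (SD, n = 2), and the ratio to the mean of all genes was 1.27 at 0 h and 1.97 at 8 h. The 8 h lists had a depth of 0.290 and 0.436 and the 0 h lists 0.416 and 0.575. In spite of the shorter lists, both lists at 8 h were higher than both at 0 h for 5 genes, Lama1, Lama4, Col4a1, Col4a2 and Plod2 (2.37% of all genes), and lower for 12 (36.9%). Col4a1 and Col4a2 had 1 and 1 SOX2 peaks at 0 h, 1 and 1 at 2 h, 8 and 3 at 4 h and 4 and 5 at 8 h. Lama1 had 2 and 3, 4 and 7, 5 and 4, and 4 and 5. Lama4 had 0 and 0 at 0 h and 1 and 1 at 8 h, and Plod2 had 0 and 0 and then 2 and 1.

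The 12 lower genes included Fn1, with 9 and 8 SOX2 peaks at 0 h and 5 and 5 at 8 h, and Dag1, with 6 and 5 and then 1 and 0. They also included Itgav, with 4 and 6 and then 1 and 1, and Itgb5, with 5 and 3 and then 0 and 0. In the 11540 strongest peaks of each list, 42 ± 2.83 peaks lay near the genes at 0 h and 56.5 ± 0.707 at 8 h (SD, n = 2), which turned the direction from 66.3% of the 0 h number to 135%. There both lists at 8 h were higher than at 0 h for 11 genes (10.7% of all genes), the former 5 with Lamc1, Nid2, Sparc, Itga3, Itga6 and Plod1, and lower for 5, Nid1, Dag1, Itgb4, Itgb5 and P4ha2 (9.39%). The exact permutation test with Benjamini-Hochberg adjustment called 0 of 30 genes and 0% of 17115 genes. A call would have needed 3260 genes at the smallest p of 0.00952 in this test. Of the 30 genes 0 had an unadjusted p under 0.05, against 2.76% of all genes tested.

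The SOX2 regions of 8 h near the genes lay mostly at PrE TF sites. Of 42 regions, 92.9% held GATA6 at 8 h, against 75.3% of 4510 near any gene, and 85.7% held SOX17 at 24 h, against 67.6%. SOX2 itself had been at 35.7% of them at 0 h, against 54.1%. Of the 66 SOX2 regions of 0 h near the genes, 34.8% held SOX17 at 24 h, against 40.7% near any gene. The 8 h GATA6 lists are those recorded for 48 h, and the times follow the peak names here too.

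**Figure D5:**
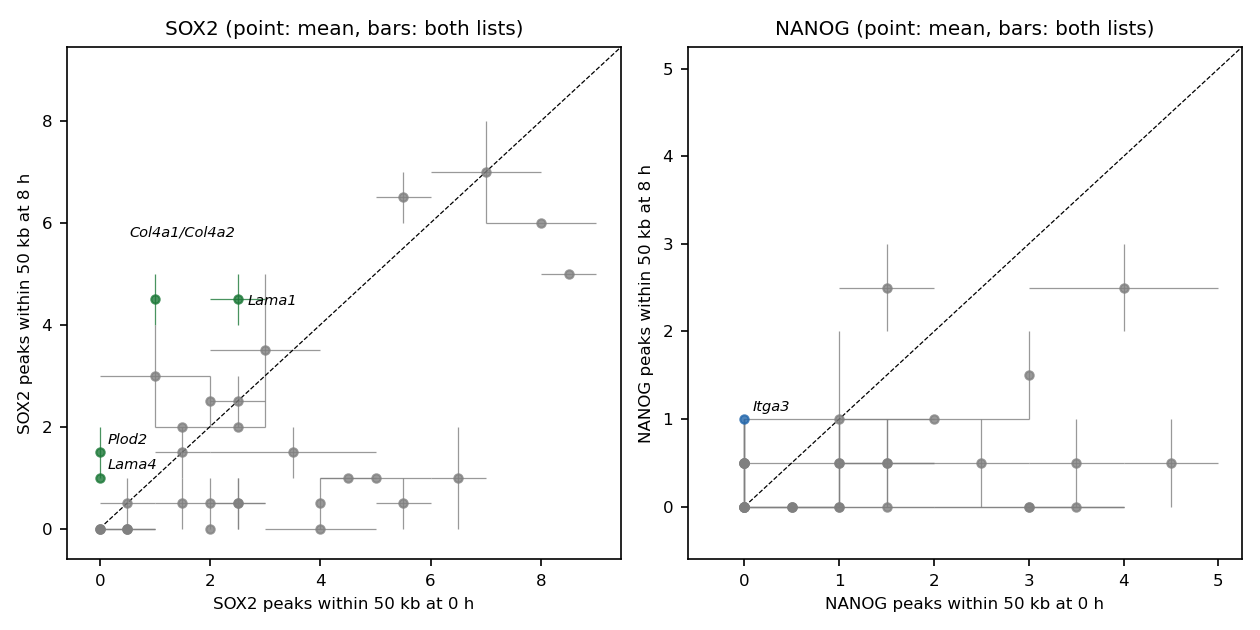
Peaks within 50 kb of the TSS at 8 h (y axis) against 0 h (x axis) for SOX2 (left) and NANOG (right). Points for the 37 genes are at the mean of 2 lists, with bars to both lists. The pairs Col4a1 with Col4a2, Col4a3 with Col4a4 and Col4a5 with Col4a6 had equal numbers and have 1 point each. The dashed line marks equal numbers at both times. Named genes had both lists at 8 h above both at 0 h. Col4a1 and Col4a2 share a point at 1 and 4.5 SOX2 peaks.

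Other matrix genes, 34 in number, were counted by the same rule. GATA6 bound 28 of 34 at 2 h (78.3% of all genes) and 25, 22 and 10 at 4, 8 and 48 h (71.2%, 57.9% and 20.6%). GATA4 bound 7 (19.9%) and SOX17 22 (61.4%) at 24 h. Of the 25 tested, 13 had GATA6 numbers that differed between time points by the same exact permutation test, as did 52.1% of all genes tested. The 5 with the highest mean fold at 48 h were Pxdn, Itgb6, Col18a1, Plod3 and Mia3. Pxdn, which crosslinks collagen IV, had folds of 7.12 and 12.4 in the 2 lists. The integrin subunit Itgb6 had 7.97 and 11.03, and the basement membrane collagen Col18a1 had 5.59 and 10.5. The lysyl hydroxylase Plod3 had 6.41 and 8.39, and Mia3, which aids export of collagen from the endoplasmic reticulum, had 5.19 and 6.48. The mean of each was below that of the strongest regions of Lamc1, Lamb1, Lama1, Itga3, Serpinh1 and the pair Col4a1 and Col4a2. Pxdn and Itgb6, with means of 9.76 and 9.50, were above the strongest regions of Sparc, P4ha1, Nid2, Plod2, Agrn, Dag1, P4ha2 and Itga6. The highest of these was that of Sparc, at 9.08.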

How the data were processed

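CUT&RUN peak lists of 30 of 57 samples were used, and 27 samples without lists here were left out. The authors, according to the study's methods, mapped reads with Bowtie2 to mm10 (GRCm38), kept duplicates, and called narrow peaks with MACS for each library against a library made with a control antibody. The deposited columns are the position, a score that was not used, the fold (a ratio over the local background), the −log10 p-value, the −log10 q-value and the summit. Every deposited peak has a q-value at or below 0.05. The authors' fold and −log10 q-value served to describe and rank peaks within a list. The lists give no read totals. The depth is the background coverage recovered from the deposited fold and p-value columns, as the value that gives whole-number pileups within 0.2% for the 30 commonest pairs in a list. The recovery took the fold as pileup over background with the same constant added to each, so a fold also depends on depth. The depth is less certain for the GATA6 0 h lists, which hold few peaks, and was not recovered for GATA4.

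Groups and replicate numbers came from the sample titles, and the GATA6 times at 4, 8 and 48 h came from the peak names. The labels do not say whether replicates were separate cultures, so p-values measure only the spread between these lists, which may be technical. Summits were assigned to every protein-coding gene of GENCODE vM21 with a TSS (the 5' end of the gene) within 50 kb. Regions were merged peaks present in both lists, and an overlap of 1 bp counted. For each gene, peak numbers were compared between time points by a two-sided exact permutation test with the sum of squares between time points as statistic over all arrangements of the lists (945 for GATA6, with a smallest p of 0.00106, against 0.00952 for NANOG and SOX2). P-values were adjusted by the Benjamini-Hochberg method over genes with a mean of at least 0.5 peaks per list. The test was checked on simulated data. Nothing was tested over the 37 genes as a list. They and all other lists were chosen with earlier results of these data known. By rule, values in every list are given for the genes bound by GATA6 at 48 h and those with the largest drop from 2 h, up to 8 bound genes are shown by sequence, none on chromosome 18, and at most 5 other matrix genes are named. Alternatives changed the distance (10 or 100 kb, nearest gene), the peaks (−log10 q of at least 5, equal numbers), the TSS set, the lists included, the filter and the overlap. Sequences were read from RefSeq GRCm38.p6. Python 3.11.15, numpy 2.4.6, pandas 2.3.3 and scipy 1.17.1 were used.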

Additional observations from a re-analysis of the deposited data

How the results depend on the processing

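Of 325 values under alternatives, 218 stayed close to the values above and 107 moved, and 73 of 116 that left out a list stayed close. The number of genes whose GATA6 peaks differed was 19, and 0 with the replicate block, without the 0 h lists, at equal numbers and within 10 kb (18 of 32, 15 of 32, 13 of 19 and 16 of 26 genes had an unadjusted p under 0.05 in the exact permutation test, against 42.5%, 41.4%, 43.1% and 53.3% of all genes tested), 30 within 100 kb (76.7% of all genes tested) and 12 by the nearest gene (23.0%). Leaving out single lists gave 11 to 23 (21.4% to 63.7%). With the replicate block 120 arrangements remain, so a call would need 2776 genes at the smallest p. Same-numbered lists did not deviate together (correlations −0.06 to 0.04 for GATA6, −0.07 to 0.02 for NANOG, −0.16 to 0.06 for SOX2). The labels do not say whether same-numbered lists were paired, and these correlations cannot settle it.

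By the record, GATA6 bound 15 genes at 4 h and 29 at 48 h (20.6% and 57.9% of all genes), the 48 h peaks were 49.4% of those at 2 h, and 47.1% of the 2 h regions were held. At equal numbers GATA6 bound 15, 16 and 16 at 2, 4 and 8 h (20.7%, 20.2% and 21.0%), NANOG 4, 6 and 8 at 0, 2 and 4 h (6.47%, 6.45% and 5.54%), and SOX2 16 at 2 h (32.2%). The ratios became 156% (GATA6, 48 to 2 h), 119% (NANOG, 2 to 0 h), 111% (NANOG, 8 to 2 h) and 135% (SOX2, 8 to 0 h). Of GATA6 2 h regions 3.45% then held NANOG at 0 h, 58.6% SOX2 at 2 h, 48.3% GATA6 at 48 h, 34.5% GATA4 and 82.8% SOX17 (near any gene 10.7%, 56.5%, 22.4%, 20.7% and 54.6%). These shares rest on GATA6 2 h lists with 34 and 38 peaks near the genes. With a −log10 q of at least 5, NANOG at 8 h bound 3 genes (0.729%), the 8 h ratios were 4.82% (NANOG) and 70.8% (SOX2), and the 2 h regions held NANOG at 0 h in 8.63% (9.10%) and SOX2 at 0 h in 17.99% (22.7%).

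Within 10 kb, NANOG bound 5, 7 and 0 genes at 0, 4 and 8 h (8.16%, 9.42% and 1.07%), SOX2 14 and 13 at 0 and 2 h (28.4% and 24.2%) and GATA4 9 (5.37%). The 8 h ratios were 8.86% and 91.2%, and the 2 h regions held NANOG at 0 h in 6.76% (10.3%), SOX2 at 0 h in 20.3% (29.7%), GATA6 at 48 h in 17.6% (5.81%) and SOX17 in 41.9% (33.4%). Within 100 kb NANOG bound 8 genes at 8 h (13.5%), the SOX2 ratio was 69.0%, and 20.9% and 10.8% of 2 h regions held SOX2 at 0 h and GATA6 at 48 h (25.8% and 5.99%). By the nearest gene NANOG bound 3 at 8 h (2.19%) and the ratios were 9.28% and 70.2%.

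Leaving out single lists, GATA6 bound 0 to 3 genes at 0 h (0.392% to 4.32%) and 18 to 22 at 48 h (24.8% to 38.3%), and NANOG bound 8 to 16 at 8 h (12.5% to 26.1%), where 1 list sufficed. The NANOG 8 h ratio was 8.86% to 16.7% and that of SOX2 60.9% to 71.7%. Of 2 h regions, 7.42% to 16.3% held NANOG at 0 h, 18.1% to 53.8% NANOG at 2 h, 18.6% to 28.8% SOX2 at 0 h, 17.2% to 45.7% SOX2 at 2 h, 8.90% to 17.3% GATA6 at 48 h, 7.42% to 18.8% GATA4 and 28.5% to 44.2% SOX17. The cause of these moves was not tested, beyond the fewer peaks or lists that the alternatives use. With 2 lists a group and depths from 0.287 to 1.55, a weak site may go uncalled in the shallower libraries.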
